A study of Mus musculus with 6 samples.

Results

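Notch signalling genes were followed in the thymus of mice that lack Rag2 and pfp and in the thymus of wild-type mice. The set comprised 10 genes: the receptors Notch1, Notch2 and Notch3, the ligands Dll4 and Jag1, and the target or feedback genes Dtx1, Hes1, Hey1, Heyl and Nrarp. They were found by gene symbol in the platform's probe annotation, which gave 11 of the 25697 probes on the array, with Notch2 represented by 2 probes and every other gene by 1. RAG2 is part of the enzyme that cuts and rejoins antigen receptor genes in lymphocytes, and pfp is an older name of the perforin gene, whose product forms pores in target cells. Total thymus RNA from 3 samples labelled Rag2/pfp KO and 3 labelled wild type was hybridised to Illumina Mouse Ref-8 v2 bead arrays, 1 array per sample. Arrays are called knockout 1 to 3 and wild type 1 to 3 after their replicate numbers. The labels give no age, sex or strain background and do not say whether the samples are single animals or pools, so the p-values reflect only how far these samples spread, in which technical variation may play a part.

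Notch receptors are cut after binding a ligand on a neighbouring cell, and the freed intracellular part enters the nucleus, joins the DNA-binding protein RBPJ and switches on target genes. In the thymus, DLL4 on cortical epithelial cells engages NOTCH1 on incoming progenitors, which commits them to the T lineage. Notch activity is known to be high in early thymocytes that have not yet passed the pre-T cell receptor checkpoint and to decline after it, and RAG-deficient thymocytes stop before that checkpoint because they cannot assemble a receptor. The same receptors, ligands and HEY genes also act in blood vessel walls.

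Each value below is a normalized log2 signal, and each difference is knockout minus wild type on that scale. A probe was tested when its detection p-value was under 0.05 on at least 3 of the 6 arrays, which kept 8 of the 11 probes and 8 of the 10 genes, and 14097 probes in all. A change was called at a Benjamini-Hochberg adjusted p under 0.05 in limma over all tested probes. On each array 13729 to 13878 probes were above background, and the median signal per array ran from 172 to 186 units. The T lineage markers Cd3d (13.56 to 14.49) and Cd3e (13.19 to 14.07) were high on all 6 arrays, and Lck, the other defining marker fixed for the tissue, has no named probe here. Not all T lineage markers were alike in the genotypes. Of 7 tested, 0 were called higher and 1 lower, against 6.09% and 5.57% of all tested genes. At an unadjusted p under 0.05 in limma the counts were 1 and 2. The called gene, Cd2, had a mean of 7.29 in the knockout and 11.29 in the wild type (adjusted p = 0.00266). Rag2 itself read 6.98, 6.73 and 7.88 on the knockout arrays and 9.17, 8.17 and 8.78 on the wild-type arrays (adjusted p = 0.0579). It passed without knockout 3 or without wild type 2 (lowest adjusted p 0.0388) and with the replicate number as a block (0.0241). The labels do not say where its probe lies relative to the deletion. Nor do they say what a replicate number marks, so the block here and below is an assumed pairing. The arrays did not carry equal amounts of other tissue. The mean level of 7 heart and striated muscle genes was 9.76, 11.72 and 4.84 on knockout 1 to 3 and 5.10, 11.63 and 6.78 on wild type 1 to 3, and 6 fat genes had their highest mean levels on knockout 2 (12.72) and wild type 2 (12.59). Apart from tissue, knockout 3 and wild type 2 differed from the other arrays in sex-linked genes. They were low in Xist (5.05 and 4.63 at 1 of its 2 probes, against 8.89 to 9.33). They were high in Eif2s3y (9.47 and 9.40, against 4.56 to 4.95), so each genotype appears to mix the sexes. In bulk tissue, fewer cells of a type and less RNA per cell cannot be told apart.

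Of the 8 tested Notch genes, 7 rose in the knockout and none fell, against 6.09% of all 9849 tested genes called higher and 5.57% called lower. The genes and the lists below were chosen with earlier results of these data known. Such counts describe the chosen genes and are not a test of them. At an unadjusted p under 0.05 in the same limma fit, 8 were higher and 0 lower. The median difference of the 8 genes was 2.21, beside 0.01 for all tested genes. On every one of the 8, each knockout array lay above each wild-type array, an arrangement found for 16.9% of all tested genes. Heyl, 1 of the 8, was above background on 3 knockout arrays and 1 wild-type array. It entered the test mainly through the knockout, so the filter favoured its place in these counts. Leaving out 1 array at a time, 5 of the 8 genes (Notch3, Dll4, Dtx1, Hes1 and Hey1) were called higher in all 6 fits, beside 0.589% of all tested genes. The number of Notch genes called ran from 5 without wild type 3 to 7 without wild type 2. With knockout 3 and wild type 2 both left out, 7 were called. With the replicate number as a block, all 8 were called.

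**Figure D1:**
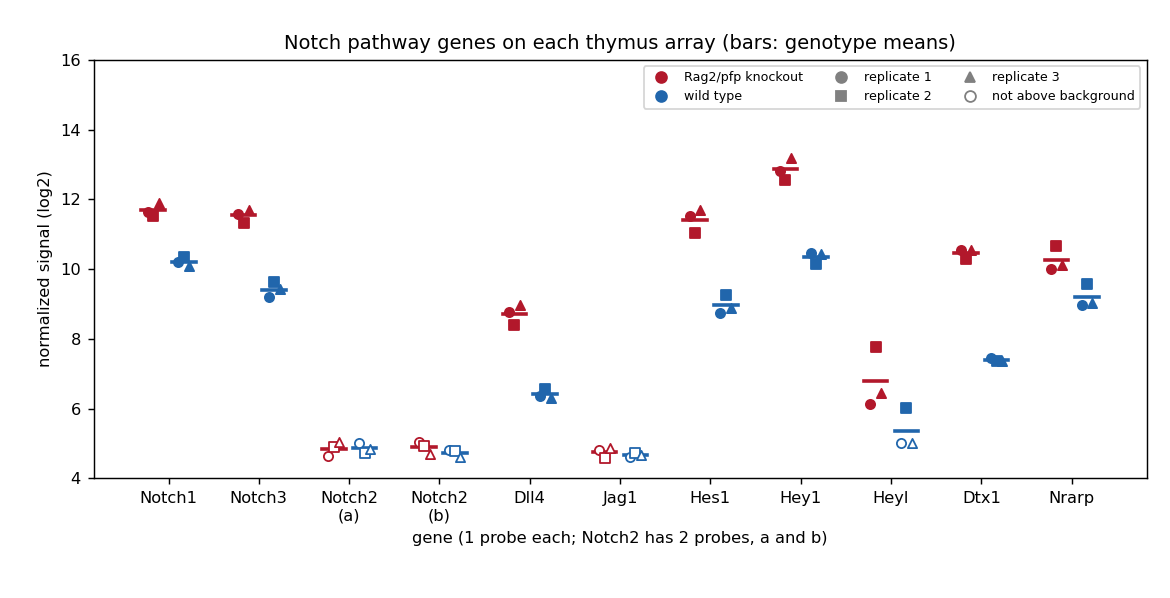
Normalized log2 signal (vertical axis) of the 11 probes of the 10 Notch genes (horizontal axis) on each array. Red marks are the 3 knockout arrays, blue marks the 3 wild-type arrays, shapes give the replicate number, short bars are genotype means and open marks are signals not above background. The filled marks of knockout and wild type do not overlap for any of the 8 tested genes, while both Notch2 probes and the Jag1 probe sit near 5 on all arrays.

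Promoter windows were available for 7 of the 10 genes. Hes1, Hey1 and Heyl had none, so the motif counts below leave these targets out. The windows of the 5 genes among the 7 that were called higher are shown. Each runs from 250 bases before to 50 bases after the annotated gene start, is credited to RefSeq on build GRCm38.p6, and is written 5′ to 3′ along the gene's strand. Capitals mark CACNAG on either strand, a spelling of the N-box that HES proteins bind.
Notch1, chr2:26503773-26504072, minus strand: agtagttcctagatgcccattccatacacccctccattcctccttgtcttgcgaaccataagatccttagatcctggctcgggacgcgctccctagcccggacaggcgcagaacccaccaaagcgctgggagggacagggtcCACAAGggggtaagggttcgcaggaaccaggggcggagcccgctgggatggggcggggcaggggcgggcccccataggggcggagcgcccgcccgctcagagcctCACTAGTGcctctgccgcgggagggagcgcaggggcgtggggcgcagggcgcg
Notch3, chr17:32166841-32167140, minus strand: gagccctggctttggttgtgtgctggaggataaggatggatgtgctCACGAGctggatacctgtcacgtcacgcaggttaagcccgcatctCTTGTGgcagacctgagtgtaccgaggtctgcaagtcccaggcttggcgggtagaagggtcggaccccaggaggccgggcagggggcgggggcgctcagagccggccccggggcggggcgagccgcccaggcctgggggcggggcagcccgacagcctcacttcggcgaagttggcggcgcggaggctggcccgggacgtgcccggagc
Dll4, chr2:119325534-119325833, plus strand: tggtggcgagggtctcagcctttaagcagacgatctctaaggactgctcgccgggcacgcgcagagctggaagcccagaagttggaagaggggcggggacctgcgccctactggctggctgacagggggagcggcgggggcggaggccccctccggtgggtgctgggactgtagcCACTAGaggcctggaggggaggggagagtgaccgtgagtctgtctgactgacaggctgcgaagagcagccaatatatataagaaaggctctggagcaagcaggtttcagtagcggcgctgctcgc
Dtx1, chr5:120711620-120711919, minus strand: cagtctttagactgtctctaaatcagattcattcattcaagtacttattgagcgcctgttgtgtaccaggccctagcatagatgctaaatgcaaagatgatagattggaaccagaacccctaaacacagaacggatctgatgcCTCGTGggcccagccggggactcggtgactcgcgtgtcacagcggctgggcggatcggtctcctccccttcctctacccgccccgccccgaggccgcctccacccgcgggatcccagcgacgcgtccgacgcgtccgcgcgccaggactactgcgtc
Nrarp, chr2:25180508-25180807, plus strand: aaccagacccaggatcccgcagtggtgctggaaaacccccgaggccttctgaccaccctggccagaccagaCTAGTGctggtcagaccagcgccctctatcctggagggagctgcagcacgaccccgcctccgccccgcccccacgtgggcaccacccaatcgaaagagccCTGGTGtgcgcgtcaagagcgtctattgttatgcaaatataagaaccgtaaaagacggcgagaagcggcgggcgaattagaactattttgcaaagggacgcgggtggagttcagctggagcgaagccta
CACNAG or its complement was present in 6 of the 7 windows, Jag1 being the exception, and in 42.5% of all 32851 promoter windows of that length. The core letters of the RBPJ site, TGGGAA on either strand, were in 0 of the 7 windows and in 25.6% of all windows. GTGGGAA, a longer spelling that contains the core, was in 6.38% of all windows. GC content ran from 55.7% (Jag1) to 73.0% (Notch2), with a median of 52.7% over all windows. A match of letters describes the window and is not a measured binding site, and RBPJ sites outside these windows were not searched.

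The receptor genes Notch1 and Notch3 were higher in the knockout. Notch1 encodes the receptor through which progenitors enter the T lineage. It read 11.63, 11.53 and 11.89 on knockout 1 to 3 and 10.19, 10.34 and 10.09 on wild type 1 to 3. The lowest knockout array stood 1.19 above the highest wild-type array, a gap wider than the spread within either genotype (0.35 and 0.26). The rise was 1.48 (SE 0.17, 95% interval 1.08 to 1.88, adjusted p = 0.00682), or 2.79-fold. It missed the threshold in 1 of the 6 fits that left out an array (without wild type 3, adjusted p = 0.0509).

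Notch3 encodes a receptor of early thymocytes and of vascular smooth muscle. It read 11.59, 11.32 and 11.70 on the knockout arrays and 9.19, 9.62 and 9.42 on the wild-type arrays, and the groups were 1.70 apart at their closest. Its rise of 2.12 (SE 0.19, 95% interval 1.67 to 2.57, adjusted p = 0.00434) was 4.36-fold, and 0.489% of the tested probes rose further. Both Notch2 probes stayed at background on all 6 arrays (lowest detection p 0.179), so no comparison was made for that receptor.

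Among the ligand genes, Dll4 was higher in the knockout and Jag1 could not be measured. Dll4 encodes the ligand that cortical epithelium presents to progenitors. Its probe read 8.78, 8.40 and 8.96 on the knockout arrays and 6.36, 6.56 and 6.31 on the wild-type arrays. The groups were 1.84 apart at their closest, and the rise was 2.30 (SE 0.19, 95% interval 1.83 to 2.77, adjusted p = 0.00406), or 4.93-fold. Because the wild-type signal was close to background (about 212 units beside 542 in the knockout), the size depended on background correction: without that step it was 1.32 (adjusted p = 0.00539), and it was 1.39 on the authors' processed values. Dll4 lies 53 tested genes from Rag2 on chromosome 2. Of the 120 tested genes within 60 of Rag2 on that chromosome 15.0% were called, beside 11.7% of all tested genes, and the part of that position in the Dll4 value was not tested. Notch1 and Nrarp lie on the same chromosome, 261 and 296 tested genes from Rag2. The Jag1 probe stayed at background on all 6 arrays too (lowest detection p 0.311).

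Genes of the cortical epithelium, which displays DLL4, moved the same way. Of 11 tested markers of this epithelium, 10 rose and none fell, against 6.09% and 5.57% of all tested genes. At an unadjusted p under 0.05 in limma the counts were 11 and 0. The mean level of these markers was 11.55 to 12.00 on the knockout arrays and 9.54 to 10.23 on the wild-type arrays. The calls in this list fell to 0 without knockout 1, 1 without wild type 3, 2 without wild type 1, 4 without knockout 3 and 7 without knockout 2. Its defining gene Foxn1, the master regulator of thymic epithelium, stayed at background on every wild-type array, and its knockout level was higher by at least 1.91-fold (adjusted p = 0.0198). Foxn1 thus entered the test only through the knockout. The summed signal of the list ran from 109143 to 142868 units in the knockout and from 29362 to 52904 in the wild type. Markers of the medullary epithelium went the other way. Of 11 tested, 3 fell and 0 rose (7 and 1 at an unadjusted p under 0.05 in limma), with a median difference of −0.996. The mean of 13 markers of endothelium, whose cells also carry Dll4, was 8.63 to 10.52 in the knockout and 7.93 to 9.72 in the wild type. Of these markers 11 had a positive difference, and the median difference was 0.916. None was called by limma (0 at an unadjusted p under 0.05). Their median SE was 0.742, beside 0.230 for all tested genes, so the absence of calls does not show that they were unchanged. The part of either cell type in the Dll4 difference was not tested.

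The transcriptional repressor genes Hes1 and Hey1 were higher in the knockout, and Heyl did not pass. HES1 is a direct Notch target in early thymocytes that represses other genes through the N-box. The Hes1 probe read 11.52, 11.03 and 11.69 on the knockout arrays and 8.74, 9.26 and 8.88 on the wild-type arrays, so that the closest arrays were 1.78 apart. Its rise was 2.46 (SE 0.24, 95% interval 1.88 to 3.03, adjusted p = 0.00546), or 5.49-fold. Hey1 encodes a related repressor best known as a Notch target of the developing heart and vessels. It read 12.82, 12.56 and 13.19 on the knockout arrays and 10.45, 10.16 and 10.43 on the wild-type arrays, with groups 2.11 apart at their closest. The rise of 2.51 (SE 0.21, 95% interval 2.00 to 3.01, adjusted p = 0.00379) was 5.69-fold, and it was called in all 6 fits that left out an array (2.34 to 2.65). Among the wild-type arrays Hey1 was lowest on wild type 2 (10.16), the one with the most heart and fat signal. That array was also the lowest wild-type array of the T lineage, double-negative, double-positive, cortical and medullary epithelium, and macrophage and dendritic cell lists. Its low place is thus not particular to Hey1, and the cells that gave the Hey1 signal were not tested.

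Heyl encodes the third HEY repressor, expressed in vascular smooth muscle. It read 6.12, 7.76 and 6.46 on the knockout arrays and 5.01, 6.03 and 5.01 on the wild-type arrays, and was above background on 3 knockout arrays and 1 wild-type array, so it entered the test mainly through the knockout. The groups were only 0.10 apart, less than the spread of 1.63 within the knockout. The difference of 1.43 (SE 0.50, 95% interval 0.23 to 2.64) was not called (adjusted p = 0.124). It was 0.94 without knockout 2 (adjusted p = 0.186) and 0.58 on the authors' processed values (adjusted p = 0.180). With the replicate number as a block it was called (adjusted p = 0.0101).

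The feedback genes Dtx1 and Nrarp were higher in the knockout. Dtx1 encodes Deltex, a ubiquitin ligase that binds the receptor's intracellular part and is a Notch target in early T cells. It read 10.54, 10.30 and 10.56 on the knockout arrays and 7.45, 7.37 and 7.36 on the wild-type arrays. The gap of 2.85 between the groups was more than the spread within the knockout (0.25) or the wild type (0.10). Its rise of 3.07 (SE 0.15, 95% interval 2.71 to 3.43, adjusted p = 0.0008) was 8.41-fold, and 11 of the 14097 tested probes rose further. Every fit that left out an array gave 3.03 to 3.15, while the rise was 2.34 with no background correction and 2.40 on the authors' processed values.

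Nrarp encodes a small ankyrin-repeat protein that Notch induces and that promotes the receptor's turnover. It read 10.01, 10.67 and 10.13 on the knockout arrays and 8.97, 9.58 and 9.04 on the wild-type arrays, and the closest arrays were 0.43 apart, within the spread of either genotype (0.66 and 0.61). The rise of 1.07 (SE 0.26, 95% interval 0.44 to 1.69, 2.10-fold) sat at the threshold (adjusted p = 0.0499). It was called in 1 of the 6 fits that left out an array, the one without wild type 2 (1.26, adjusted p = 0.0313), and reached an adjusted p of up to 0.186 in the others. It was not called with no detection filter (adjusted p = 0.0690), and with the replicate number as a block its adjusted p was 0.00953.

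**Figure D2:**
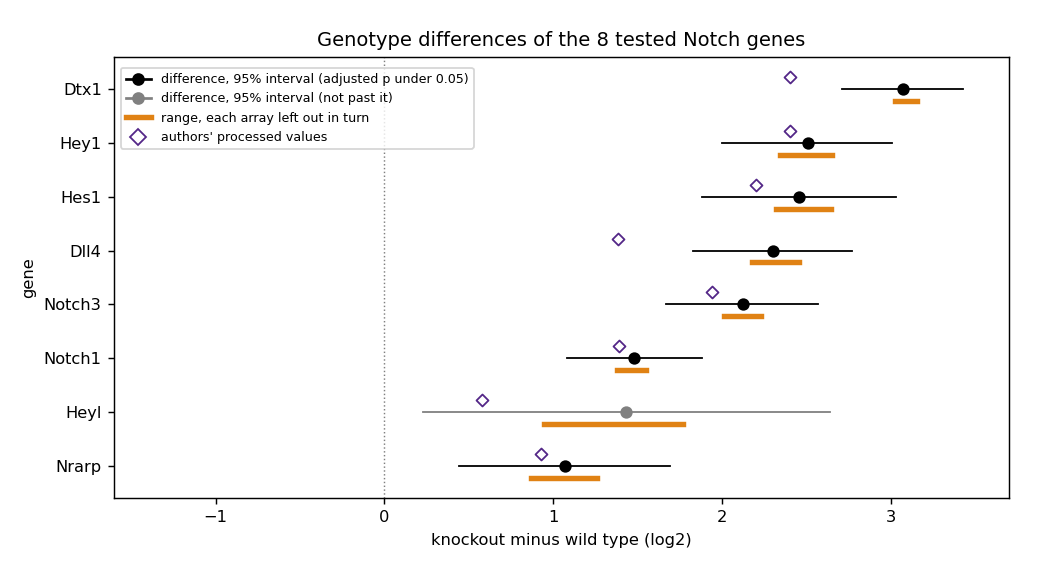
Difference between knockout and wild type (horizontal axis, log2) for the 8 tested Notch genes (vertical axis). Points with thin lines are the limma difference and its 95% interval, black where called and grey where not, orange bars span the 6 fits that each left out an array, and open diamonds are differences on the authors' processed log2 values. All intervals lie above 0, from Nrarp (1.07) to Dtx1 (3.07), and Dll4 moves most of the called genes between the processings, from 2.30 to 1.39.

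The differences of neighbouring size had overlapping intervals, and the order of the 8 genes depended on the processing. Dtx1 had the highest difference with background correction (3.07, beside 2.51 for Hey1), whereas Hey1 and Dtx1 were nearly equal without it (2.39 and 2.34) and on the authors' processed values (2.40 for both). The interval of Dtx1 (2.71 to 3.43) overlapped those of Hey1, Hes1 and Dll4 and began above those of Notch3, Heyl, Notch1 and Nrarp, whose upper ends reached 2.64 at most. Differences between the sizes were not tested, and a probe near background, such as Dll4 or Heyl, has its difference set in part by the background step.

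The arrays within a genotype were not ordered alike by all 8 genes. Knockout 2 was the lowest knockout array for 6 of them (Notch1, Notch3, Dll4, Dtx1, Hes1 and Hey1) and the highest for Heyl and Nrarp. Wild type 2 was the highest wild-type array for 6 (all but Dtx1 and Hey1). Markers of several non-lymphoid tissues moved with these arrays: the mean of 9 mural cell genes was 8.34, 10.36 and 7.53 on knockout 1 to 3 and 7.50, 8.84 and 7.71 on wild type 1 to 3, highest on knockout 2 and wild type 2 as for Heyl and Nrarp. The same arrays were highest for the endothelial (10.52 and 9.72), fibroblast (10.61 and 9.82), fat (12.72 and 12.59) and heart and striated muscle lists (11.72 and 11.63), so this order is not particular to vessel walls. All 9 mural cell genes had a positive difference, with a median of 0.561 and a median SE of 0.794. None of the 9 was called by limma (2 were higher and 0 lower at an unadjusted p under 0.05). Their summed signal ran from 4021 to 66987 units in the knockout and from 5836 to 11849 in the wild type. The part of mural cells in the Heyl and Nrarp values was not tested. The 7 tested genes of double-negative thymocytes, the early stage in which Notch acts, had mean levels of 9.77, 9.35 and 9.96 on the knockout arrays and 8.73, 8.49 and 8.73 on the wild-type arrays. Of these 7 genes 3 rose and none fell (3 and 1 at an unadjusted p under 0.05 in limma). By contrast, 6 of 8 double-positive thymocyte genes fell and none rose (6 and 0 likewise). Of all tested genes, 6.09% were called higher and 5.57% lower. Knockout 2 was the lowest knockout array of the double-negative list, and also of the T lineage, double-positive, cortical and medullary epithelium, B cell, and macrophage and dendritic cell lists, so its low place is shared by most lists and is not particular to one cell type. The part of these cell types in the Notch gene differences was not tested.

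**Figure D3:**
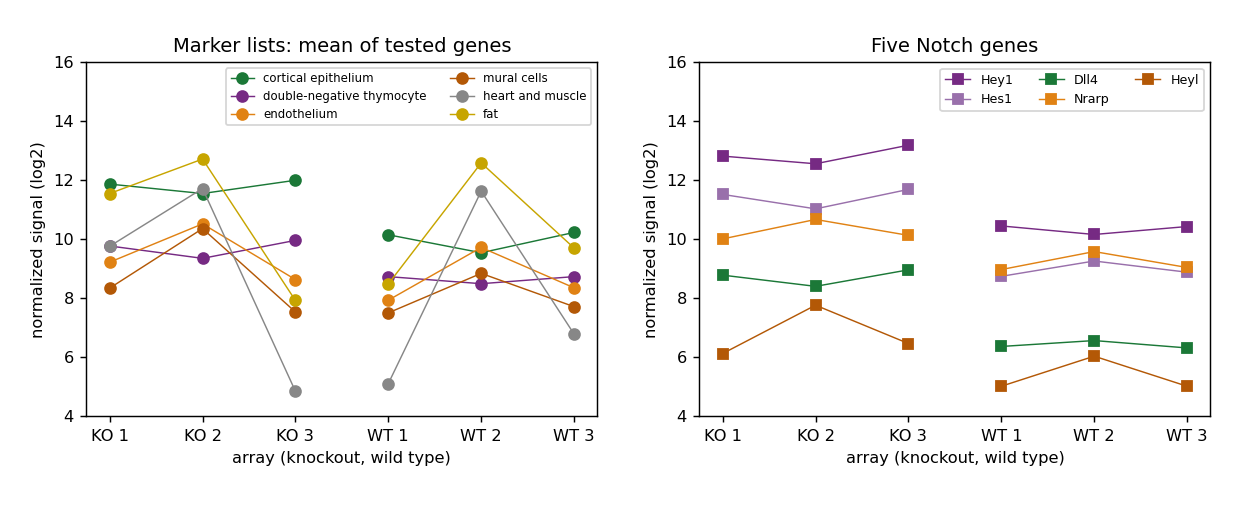
Normalized log2 signal (vertical axes) on the 6 arrays (horizontal axes), with lines joining the arrays of 1 genotype. The left panel gives the mean of the tested genes in 6 marker lists and the right panel 5 Notch genes: Heyl and Nrarp peak on knockout 2 and wild type 2 as the mural cell list (10.36 and 8.84) and other non-lymphoid lists do, while Hey1 is lowest on these arrays (12.56 and 10.16) as are the cortical epithelium and double-negative lists. The T lineage, double-positive, medullary epithelium, and macrophage and dendritic cell lists, which are not drawn, are also lowest on these arrays.

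The remaining components of the pathway were examined as a list of 49 genes, of which 42 were on the array and 31 were tested. Of these 31, 4 rose and 1 fell, against 6.09% and 5.57% of all tested genes, and the median difference was 0.04. The rises lay among ligands, a HEY gene and a Deltex gene. Jag2, a Notch ligand, read 9.13, 8.48 and 9.28 on the knockout arrays and 7.67, 7.29 and 7.65 on the wild-type arrays, a rise of 1.43 (SE 0.25, adjusted p = 0.0227). Dll1, a ligand related to Dll4, read 8.02, 7.65 and 8.14 on the knockout arrays and 6.74, 7.07 and 6.55 on the wild-type arrays, and rose by 1.15 (SE 0.21, adjusted p = 0.0253). Both ligands were without overlap between the genotypes.

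Hey2, the other HEY repressor of heart and vessels, rose by 1.17 (SE 0.22, adjusted p = 0.0255), and its knockout arrays (6.80, 7.43 and 6.97) lay above its wild-type arrays (6.11, 5.73 and 5.86). Its wild-type signal was close to background, and it was not called with no background correction or on the authors' processed values. Dtx4, a relative of Dtx1, rose by 1.73 (SE 0.38, adjusted p = 0.0380). Dtx2, another relative, fell by 0.72 on the log2 scale (SE 0.16, adjusted p = 0.0419), from 12.15, 12.09 and 12.16 in the wild type to 11.37, 11.63 and 11.21 in the knockout. Dtx3, the third Deltex relative tested in the list, differed by 0.38 (adjusted p = 0.347). None of these 5 calls remained without knockout 1, knockout 3, wild type 1 or wild type 3, and their adjusted p reached 0.169 at most. At an unadjusted p under 0.05 in the same limma fit on all arrays, 5 genes of the list were higher and 4 lower. With the replicate number as a block 5 rose and 2 fell.

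In the fit on all arrays 11.7% of all tested genes were called in either direction, a share at which groups of a few genes can have 0 calls. No gene of receptor glycosylation, ligand endocytosis, receptor cleavage or the nuclear complex was called in that fit, of 4, 3, 6 and 5 tested. Other fits called a few of them, named here after their values were seen: Snw1 was lower with the replicate number as a block, Neurl1a was lower without knockout 2, and without wild type 2 Aph1b was higher and Maml1 lower (Aph1b also with knockout 3 left out besides). The fit with array weights, which did not converge, called more of them. At an unadjusted p under 0.05 in the limma fit on all arrays without weights, 1 cleavage gene was higher and 2 genes of the nuclear complex were lower. In the same fit 0 genes of receptor glycosylation or ligand endocytosis passed. Ncstn, a subunit of the gamma-secretase that cuts the receptor, differed by −0.07 (95% interval −0.41 to 0.27, adjusted p = 0.795), and Psenen, another subunit, by −0.28 (adjusted p = 0.231). Mib2, a ubiquitin ligase that drives ligand endocytosis, differed by 0.42 (adjusted p = 0.198). Rbpj, the DNA-binding partner of the receptors, had 3 probes and none was above background on any array, so it was not compared. It is named here after its values were seen.

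**Figure D4:**
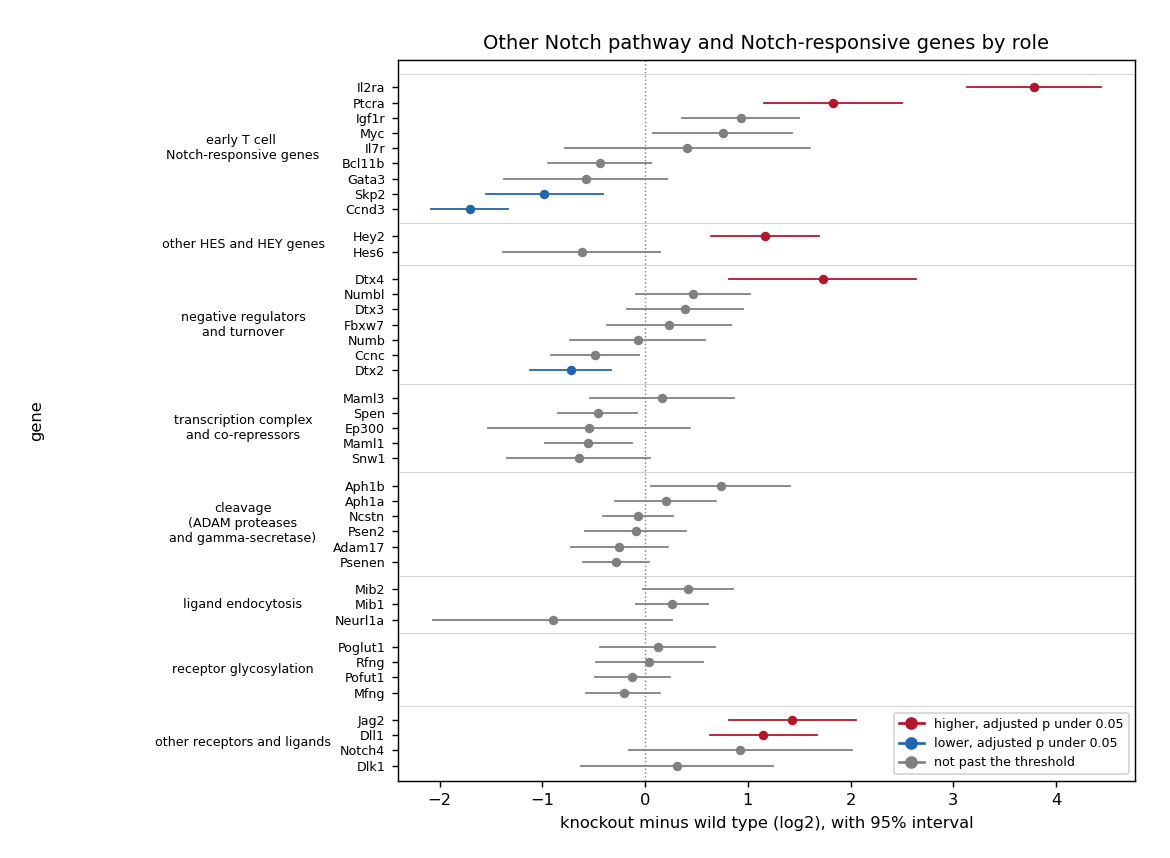
Difference between knockout and wild type (horizontal axis, log2) with 95% intervals for the tested genes of the pathway list and of the early T cell Notch-responsive list (vertical axis, grouped by role). Red and blue mark genes called higher and lower, and grey those not past the threshold. Jag2, Dll1, Hey2 and Dtx4 are the red points of the pathway list, Dtx2 its blue point, and the Notch-responsive genes run from −1.70 (Ccnd3) to 3.79 (Il2ra).

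Genes known to respond to Notch in early T cells moved in both directions. Of 10 listed, 9 were tested, 2 rose and 2 fell, against 6.09% and 5.57% of all tested genes, and the median difference was 0.41. At an unadjusted p under 0.05 in the same limma fit, 4 were higher and 2 lower. Il2ra, the interleukin-2 receptor alpha chain that marks the arrested stage, read 10.77, 10.81 and 11.39 on the knockout arrays and 7.22, 7.59 and 6.81 on the wild-type arrays (difference 3.79, SE 0.27, adjusted p = 0.00226). Ptcra, the pre-T cell receptor alpha chain, read 10.95, 10.09 and 10.97 against 8.89, 8.65 and 8.98 (difference 1.83, SE 0.28, adjusted p = 0.0147). Both genes also stand in the double-negative list, and Ptcra was called in 3 of the 6 fits that left out an array (adjusted p up to 0.0729 in the fits without knockout 1, wild type 1 and wild type 3).

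Ccnd3, the cyclin that Notch and pre-T cell receptor signals induce for division, fell in the knockout. It read 12.40, 12.14 and 12.30 on the knockout arrays and 13.87, 14.11 and 13.96 on the wild-type arrays, and the groups did not overlap (difference −1.70, SE 0.15, adjusted p = 0.00445). It was called in all 6 fits that left out an array. Skp2, a ubiquitin ligase subunit that drives entry into S phase, fell by 0.98 on the log2 scale (adjusted p = 0.0486) and was called in 1 of those fits, without wild type 2. The growth factor receptor gene Igf1r differed by 0.93 (adjusted p = 0.0560), and was called with the replicate number as a block (adjusted p = 0.0486), without knockout 2 and without wild type 2. The transcription factor gene Bcl11b differed by −0.44 (adjusted p = 0.231), Gata3 by −0.58 (adjusted p = 0.308), and the cytokine receptor gene Il7r by 0.41 (adjusted p = 0.641).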

How the data were processed

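Thymus RNA from 3 Rag2/pfp KO and 3 wild-type samples was measured on 1-colour bead arrays, grouped by sample title. Probe intensities were deposited by the authors without normalization between arrays, per the file headers, with a detection p-value for each, and GenomeStudio 2011.1 is named in the submitters' processing notes. A second deposited table holds log2 values that differed from quantile normalized log2 intensities by at most 5.00e-07 (column median 7.48).

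The neqc function of limma 3.58.1 (R 4.3.3) corrected the intensities for background inferred from the detection p-values, added an offset of 16, quantile normalized them and took log2. The genotypes were compared by lmFit and eBayes with no block, and p-values were adjusted by Benjamini-Hochberg over 14097 probes. Of 25697 probes, 23978 carried 1 symbol, 0 several and 1719 none, and 23962 matched the RefSeq table by gene ID. A gene was represented by its brightest tested probe. Members and lists were chosen with earlier results of these data known. From the lists the text names up to 6 called genes with the largest change and up to 4 uncalled genes with the highest mean. The fit was tested on simulated data. The number of arrays limits precision.

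Samples share replicate numbers across genotypes. Deviations from the genotype means correlated between same-numbered arrays (r = 0.104, 0.750 and 0.559 for numbers 1 to 3). Each was over 0.1, and by that rule a fit with the number as a block was run. Some arrays of unlike number correlated more: knockout 3 with wild type 1 (r = 0.727) and knockout 1 with wild type 3 (r = 0.108). The pairing is therefore not established, and calls made only with the block rest on it.

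The alternatives were median centring, an offset of 50, signals with no background correction, the authors' values, no detection filter, detection at 0.01 on all 6 arrays, the replicate block, trend with robust moderation, array weights, a test against 1.5-fold, the probe with the largest spread, leaving out each array, and leaving out knockout 3 and wild type 2.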

Additional observations from a re-analysis of the deposited data

How the results depend on the processing

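No Notch gene difference changed sign under any alternative, and Notch3, Dll4, Dtx1, Hes1 and Hey1 were called under all of them. Notch1 missed the threshold without wild type 3. Nrarp missed it with no detection filter, against a 1.5-fold change (adjusted p = 0.533) and without any array but wild type 2, and Heyl passed only with the replicate block and with array weights. Notch genes called higher numbered 5 to 7 with 1 array left out (none lower), 8 with the replicate block or array weights, and 6 with no filter or against 1.5-fold. With 1 array left out, 76 to 977 probes were higher and 126 to 1109 lower, as were 66 to 733 and 84 to 773 genes, 0 to 4 and 0 to 2 other pathway genes, and 1 to 3 and 1 to 2 Notch-responsive genes. With the replicate block, these pairs were 1605 and 1703 probes, 1223 and 1163 genes, 5 and 2 pathway genes, and 3 and 2 responsive genes. With array weights they were 5157 and 5400, 3668 and 3723, 13 and 13, and 4 and 4, in a fit whose weights did not converge and gave knockout 1 a weight of 33.3 and wild type 2 of 0.139. Against 1.5-fold they were 103 and 162, 88 and 114, 0 and 0, and 1 and 1. Without knockout 3 and wild type 2 they were 1290 and 1338, 971 and 937, 3 and 0, and 2 and 3. Falls among the responsive genes numbered 1 with median centring, with no filter and with the probe of largest spread. The block changed no call of a Notch gene other than Heyl. Causes of these changes were not tested. Signal over background limits Notch2, Jag1 and Rbpj, which were not measured here.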

Other observations

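The genes whose profile over the 6 arrays was most like that of a called Notch gene were found by the root mean square difference of centred log2 values over 9848 other tested genes. For Dll4 they were Rps6kl1 (0.067) and Hes1 (0.126), and for Hes1 they were Dll4 (0.126) and Rps6kl1 (0.174). For Notch1 they were Evc2 (0.050) and Ctf1 (0.085), and for Notch3 Mark1 (0.090) and Repin1 (0.099). For Hey1 they were Capn5 (0.106) and Stk35 (0.145), for Dtx1 Insyn2b (0.218) and Ppp1r27 (0.221), and for Nrarp Plaat1 (0.082) and Maged2 (0.096). Genes chosen by this closeness share the direction and nearly the size of the Notch gene's difference by construction, so that likeness is not a separate result. Their differences ran from 0.94 (Maged2, adjusted p = 0.0840 in limma) to 3.05 (Ppp1r27). Maged2 was the only gene among them that was not called.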
